A study of Arabidopsis thaliana with 6 samples.

Results

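Chromatin-remodelling genes were followed in leaves of Arabidopsis plants that carry mutations in both ISWI-type remodelling ATPases. The set held 6 genes, CHR17, CHR23, INO80, SWI3A, CHB3 and BSH, chosen by name. The choice was made with earlier results of these data known. Each gene was matched by gene ID to the probe table and had 1 probe set of its own. These were 6 of the 22746 probe sets tested, among 13356 genes with a name. The study measured leaf RNA with ATH1 arrays at 15 days in plants grown without treatment, with 3 arrays for the wild type, Col-0, and 3 for the double mutant chr11-1 chr17-1, 1 sample per array. The mutant carries the chr11-1 and chr17-1 alleles of the 2 ISWI ATPase genes, and the position of either mutation and of the probes is not given in the sources used here. The labels do not say whether arrays of a genotype came from separate plants, so the p-values reflect the spread among these 6 arrays alone, which may be technical, and so few arrays limit the precision.

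Chromatin remodellers are protein machines that use ATP to slide, evict or exchange nucleosomes, and so change how open DNA is to transcription. They fall into families named after their ATPase. ISWI remodellers space nucleosomes evenly, and SWI/SNF remodellers slide and evict them. INO80 and SWR1 form a further group, in which SWR1 deposits the histone variant H2A.Z. The comparison asks whether transcripts of other remodellers differ in level when both ISWI ATPases are mutated.

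BSH, the SNF5-type core subunit of SWI/SNF complexes, was lower in the double mutant. Its log2 level fell by 0.50 (SE 0.12), to 0.705 of the wild-type signal. The other 5 genes did not pass the test, and the ATPase gene CHR17 itself had a log2 difference of 0.34 that fell short of it. CHR23 averaged within the range of a control for a bacterial gene and SWI3A 0.06 above its upper end, so these probe sets carry little information on either genotype. The test was limma's moderated test on deposited log2 levels (the double mutant minus wild type), adjusted over all 22746 probe sets by Benjamini-Hochberg, with a threshold of 0.05. It called 28.6% of all probe sets, 14.0% higher and 14.7% lower, and 1 of 6 remodeller genes (16.7%) does not exceed that share.

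**Figure D1:**
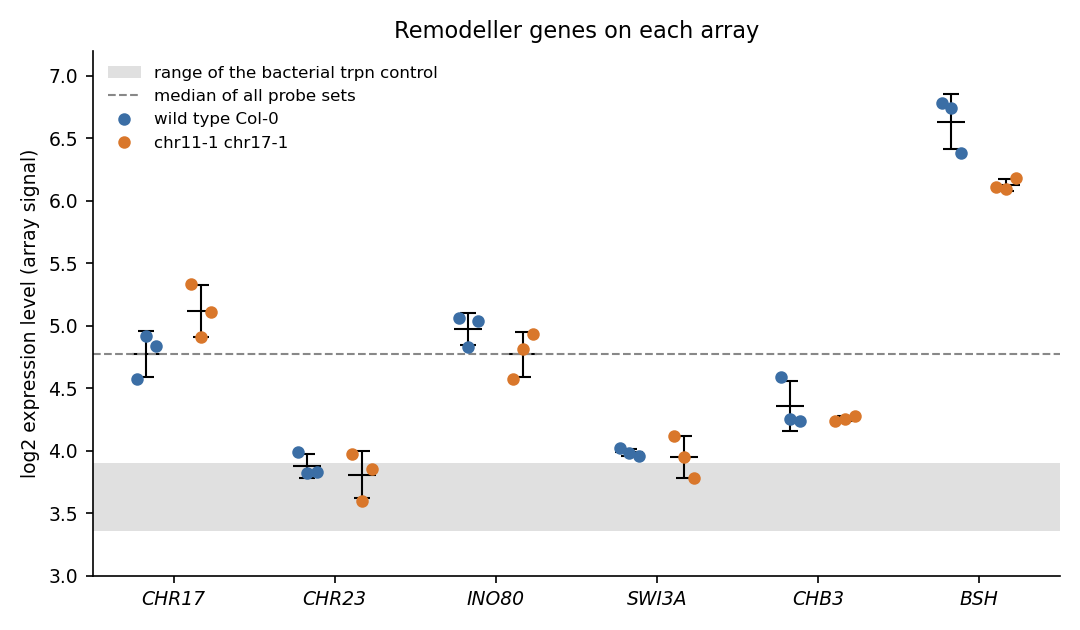
Log2 expression level (array signal) of the 6 remodeller genes, with 1 point per array, 3 wild-type arrays in blue and 3 chr11-1 chr17-1 arrays in orange, and black bars for the mean and SD of each genotype. The grey band spans the bacterial trpn control readings from 3.36 to 3.90 and the dashed line is the median of all probe sets (4.77); BSH stands apart by genotype, while CHR23 lies at the upper edge of the band and SWI3A mostly just above it.

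Among the ATPases, CHR17 is one of the mutated genes and was read first. Its probe set gave log2 levels of 4.57, 4.92 and 4.84 on the wild-type arrays and 5.33, 4.91 and 5.11 on the mutant arrays. Mutant replicate 2 lay within the wild-type range, so the groups overlapped. The difference of 0.34 had a 95% interval from 0.05 to 0.62 and a limma adjusted p of 0.0832. At its standard error, a difference of at least 0.38 was needed to pass. Leaving out mutant replicate 2 gave 0.44, which passed (limma adjusted p = 0.0406). Without wild-type replicate 1 or mutant replicate 1 it was 0.23 in both cases (limma adjusted p = 0.265 and 0.241), with intervals that include 0. Scaled to the median of the control probe sets it was 0.0021 (95% interval -0.38 to 0.39). That scaling shifts every probe set alike, so CHR17 stood where it did before relative to the other probe sets. Since the probes may lie outside the part that the mutation affects, the reading does not check the genotype labels. The other ISWI ATPase gene, CHR11, is not named in the probe table used and was not analysed here.

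CHR23, a SWI/SNF ATPase gene also known as MINUSCULE 2, gave 3.99, 3.82 and 3.83 in wild type against 3.97, 3.60 and 3.85 in the double mutant. The groups overlapped, with mutant replicate 2 below every other array and a difference of -0.07 (95% interval -0.32 to 0.18; limma adjusted p = 0.740). The sign turned without mutant replicate 2 (0.03). The gene lies on chromosome 5 with CHR17, and 79 annotated protein-coding genes of the TAIR10.1 assembly stand between the pair.

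INO80, the ATPase of the INO80 complex, gave 5.06, 4.83 and 5.04 in wild type against 4.57, 4.81 and 4.93 in the double mutant. Mutant replicate 1 was the lowest of all 6 arrays, and mutant replicate 3 lay inside the wild-type range. The difference was -0.20 (95% interval -0.46 to 0.05; limma adjusted p = 0.254), where at least 0.34 was needed to pass, and it was -0.10 without mutant replicate 1. INO80 is the gene whose call depended on the scaling of arrays. Scaled to the median of the control probe sets, it had -0.53 and passed (limma adjusted p = 0.0254). That scaling moves the median of all probe sets by -0.33, and relative to this shift INO80 stood where it did before.

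The SWI3 proteins are paired core subunits that hold SWI/SNF complexes together. SWI3A gave 4.02, 3.98 and 3.96 in wild type against 4.12, 3.95 and 3.78 in the double mutant. The mutant arrays lay on both sides of the wild-type arrays, with a difference of -0.03 (95% interval -0.26 to 0.20; limma adjusted p = 0.875) that became 0.05 without mutant replicate 3. CHB3, also called SWI3D, gave 4.59, 4.25 and 4.24 in wild type against 4.24, 4.25 and 4.28 in the double mutant. Wild-type replicate 1 stood above the other 5 arrays, which lay within 4.24 to 4.28. The CHB3 difference was -0.11 (95% interval -0.35 to 0.14; limma adjusted p = 0.575), and without wild-type replicate 1 it was 0.0083. A further probe set lists CHB3 together with a neighbouring gene and was not used here.

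BSH gave 6.78, 6.74 and 6.38 in wild type against 6.11, 6.09 and 6.18 in the double mutant. All 3 mutant arrays lay below the lowest wild-type array, and the mutant arrays were closer to each other (6.13 ± 0.05, SD, n = 3) than the wild-type arrays (6.63 ± 0.22). The difference of -0.50 had a 95% interval from -0.76 to -0.25 (limma adjusted p = 0.00746), so the mutant signal lay between 0.591 and 0.843 of that in wild type. An exact permutation test of BSH alone gave a two-sided p of 0.1, the smallest that 3 against 3 arrays allow. BSH passed limma with each array left out in turn, with differences from -0.63 to -0.43. Over all probe sets, 9.21% were lower by at least as much, and the groups did not overlap in 39.5%. Among the 500 probe sets closest in level to BSH, 53.6% passed, and 28.0% of the 500 passed as lower. Their median size of difference was 0.39. The labels give leaf as the tissue and no cell type, so fewer cells of a type and less RNA per cell cannot be told apart.

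**Figure D2:**
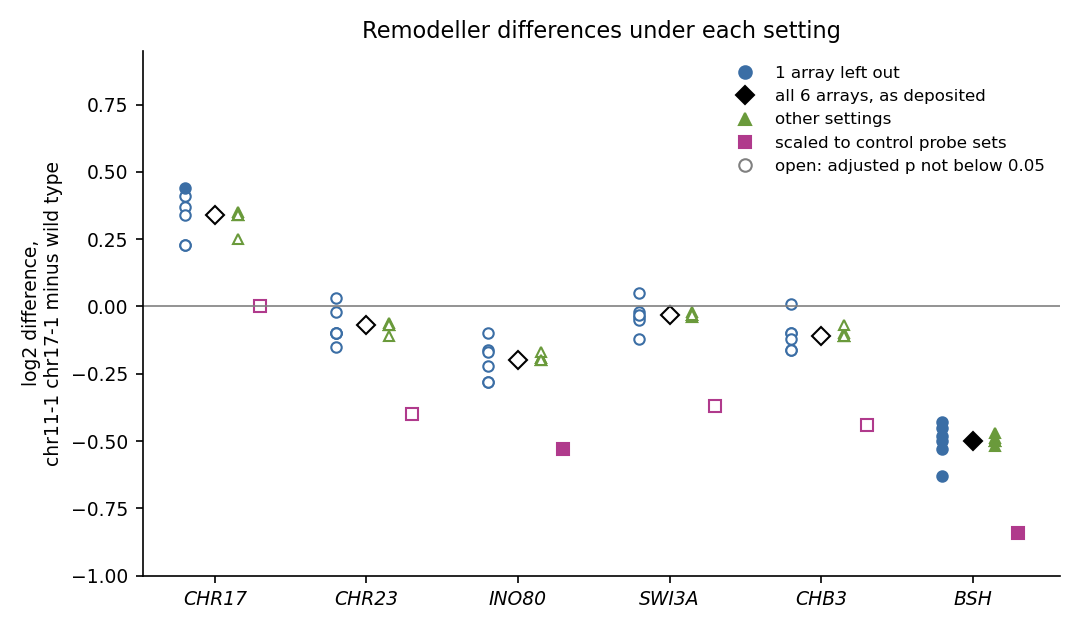
Log2 difference (chr11-1 chr17-1 minus wild type) of each remodeller gene with all 6 arrays as deposited (diamonds), with 1 array left out (circles), under other settings (triangles) and scaled to the control probe sets (squares); filled symbols have an adjusted p below 0.05. BSH is filled throughout, CHR17 is filled without mutant replicate 2, and INO80 is filled under control scaling.

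How far each reading can speak depends on its signal. No detection call was used here, so 3 control probe sets for a bacterial tryptophan gene served as a reference for signal without a plant transcript; the labels do not say which RNAs were spiked in. They read 3.36 to 3.90 over the 6 arrays and differed by -0.04 to 0.01 between the genotypes. CHR23 averaged 3.84, 0.06 below the highest control reading, and SWI3A averaged 3.97, 0.06 above it. CHB3 averaged 4.31, INO80 4.87, CHR17 4.95 and BSH 6.38, which are 0.40, 0.97, 1.04 and 2.47 above it on the log2 scale. Levels of different probe sets depend on the probes and do not rank the transcripts.

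Few probe sets passed at low signal. Of the 5336 probe sets with a mean at or below 3.90, which is 23.5% of all, 60 passed (1.12%). Among the 500 probe sets closest in level to CHR23, 2.2% passed, and among those closest to SWI3A 4.8% did. The share was 20.2% around CHB3, 34.0% around INO80, 37.4% around CHR17 and 53.6% around BSH. Standard errors were much alike at these levels, with medians from 0.10 to 0.12. The median size of the difference was smaller at low signal, 0.06 around CHR23 against 0.39 around BSH. A difference had to reach 0.33 for CHR23, 0.31 for SWI3A and 0.32 for CHB3 to pass. Observed differences under those sizes in array signal could not pass. The cutoffs apply to observed differences and are not limits on the true change. Near the control level a change in transcript amount can leave the signal almost as it was.

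**Figure D3:**
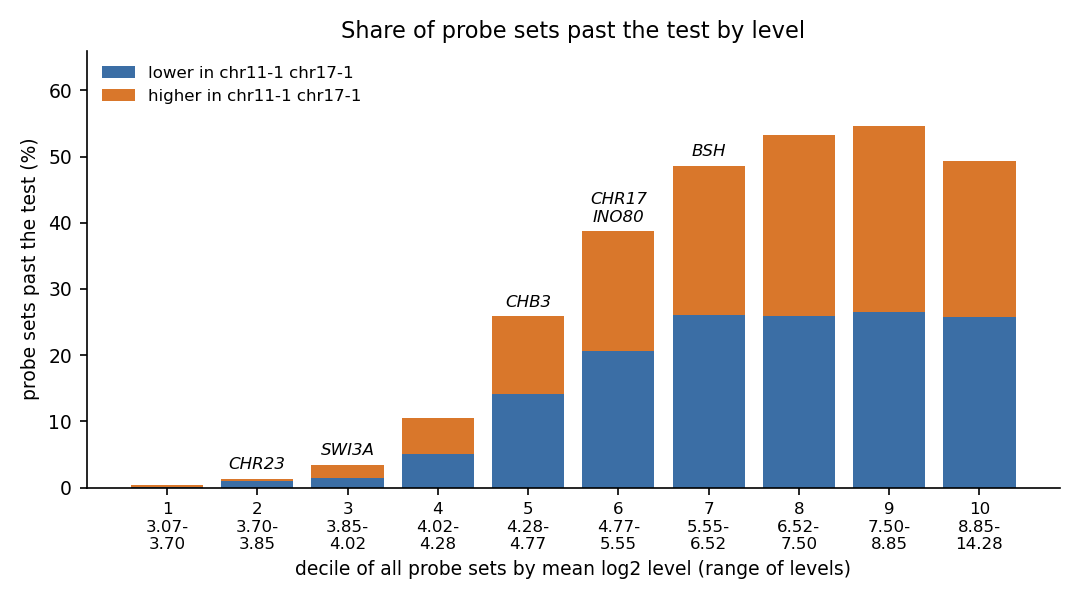
Share of probe sets past the limma test (%, adjusted p below 0.05) in each decile of the 22746 probe sets by mean log2 level, split into lower (blue) and higher (orange) in chr11-1 chr17-1, with the remodeller genes named above their decile. The share goes from 0.308% in the dimmest decile to 54.7% in decile 9, and CHR23 and SWI3A lie in deciles with 1.32% and 3.47%.

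Beyond these 6 genes, 13 of the other 73 entries in 8 lists of chromatin genes had a named probe set. With the 6 members, 3 of 19 rose and 3 fell, with a median difference of -0.03, against 12.5% and 13.1% (25.6% in all) of the 13356 named genes and a median of -0.0028 over all probe sets. Scaled to the control probe sets, 0 of the 19 were higher and 7 were lower (BSH, AT3G01890, CHC1, INO80, SWC2, ATRX and ASF1B), while over all probe sets the split went from 3178 higher and 3333 lower to 932 and 5997 (30.5% in all). No entry of the CHD list or of the DNA methylation and histone deacetylation list had a named probe set. Another 9233 probe sets lack a single gene name, so these genes may still be on the arrays.

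In the SWI/SNF list, 2 of 6 measured genes fell (33.3%) and 4 did not pass. Of all named genes, 25.6% passed, 13.1% as lower. All 6 differences in the list were below 0 (median -0.25), though those of CHR23, SWI3A and CHB3 turned when 1 array was left out. AT3G01890, which the gene table lists without a name, gave 4.54, 4.55 and 4.31 in wild type against 3.78, 4.01 and 4.12 in the double mutant. All mutant arrays lay below all wild-type arrays, and it fell by 0.50 (limma adjusted p = 0.00777). Mutant replicate 1 lay within the bacterial control range and the mutant mean of 3.97 just above it, so the size of the fall is one of array signal near background. CHC1, a BAF60-type SWI/SNF subunit gene, gave 7.18, 6.78 and 6.85 in wild type against 6.26, 6.69 and 6.70 in the double mutant. Its groups did not overlap either, as those of 39.5% of all probe sets did not. The difference of -0.38 (95% interval -0.71 to -0.06) missed the threshold (limma adjusted p = 0.0757). It was -0.24 without mutant replicate 1 and -0.26 without wild-type replicate 1 (limma adjusted p = 0.225 and 0.248). In the INO80 and SWR1 list, SWC2, a subunit of the SWR1 complex that deposits H2A.Z, fell and INO80 did not pass. SWC2 gave 5.28, 5.25 and 5.31 in wild type against 4.86, 4.79 and 4.83 in the double mutant, a tight drop on every array (-0.45, SE 0.08; limma adjusted p = 0.00202). In the ISWI list the second measured gene, AT3G43240, had 0.13 (limma adjusted p = 0.515), which became -0.21 under control scaling.

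Of 6 other SNF2-type ATPase genes, CHR19 rose and 5 did not pass (16.7% called, against 25.6% of all named genes). CHR19 gave 6.20, 6.40 and 6.51 in wild type against 7.26, 6.97 and 6.91 in the double mutant. Every mutant array was above every wild-type array, a rise of 0.67 (SE 0.12; limma adjusted p = 0.00164). ATRX, whose counterpart in animals deposits histone H3.3, had -0.16. The remaining 4, CHR18 (0.05), CHR42 (0.03), chr31 (0.09) and CHR40 (0.03), were all negative under control scaling, which lowers every difference by the same shift. They changed sign with 1 array left out as well. The last 3 averaged 3.54 to 3.71, within the range of the bacterial control.

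ULT1, a trithorax-type regulator that counters Polycomb silencing, had the largest change of the 19 on the deposited scale. It gave 5.36, 5.29 and 5.33 in wild type against 6.24, 6.15 and 6.0 in the double mutant, and rose by 0.80 (SE 0.09; limma adjusted p = 0.000104). It was the only gene of its list with a named probe set. Of the histone chaperones, ASF1A rose and ASF1B did not pass. ASF1A, which hands histones H3 and H4 to assembly factors, gave 6.41, 6.39 and 6.61 in wild type against 7.24, 6.89 and 7.19 in the double mutant (0.63, SE 0.12; limma adjusted p = 0.00192). Its relative ASF1B gave 6.67, 6.55 and 6.92 against 6.50, 6.42 and 6.34, with no overlap and a difference of -0.29 (limma adjusted p = 0.0743); leaving out wild-type replicate 2 gave -0.37, which passed (limma adjusted p = 0.0478), and leaving out wild-type replicate 3 gave -0.19 (limma adjusted p = 0.275). Under control scaling the rises of CHR19 (0.34), ULT1 (0.47) and ASF1A (0.30) no longer passed (limma adjusted p = 0.150, 0.0526 and 0.196). That scaling moves the median of all probe sets by -0.33, and relative to this shift these genes stood where they did before.

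**Figure D4:**
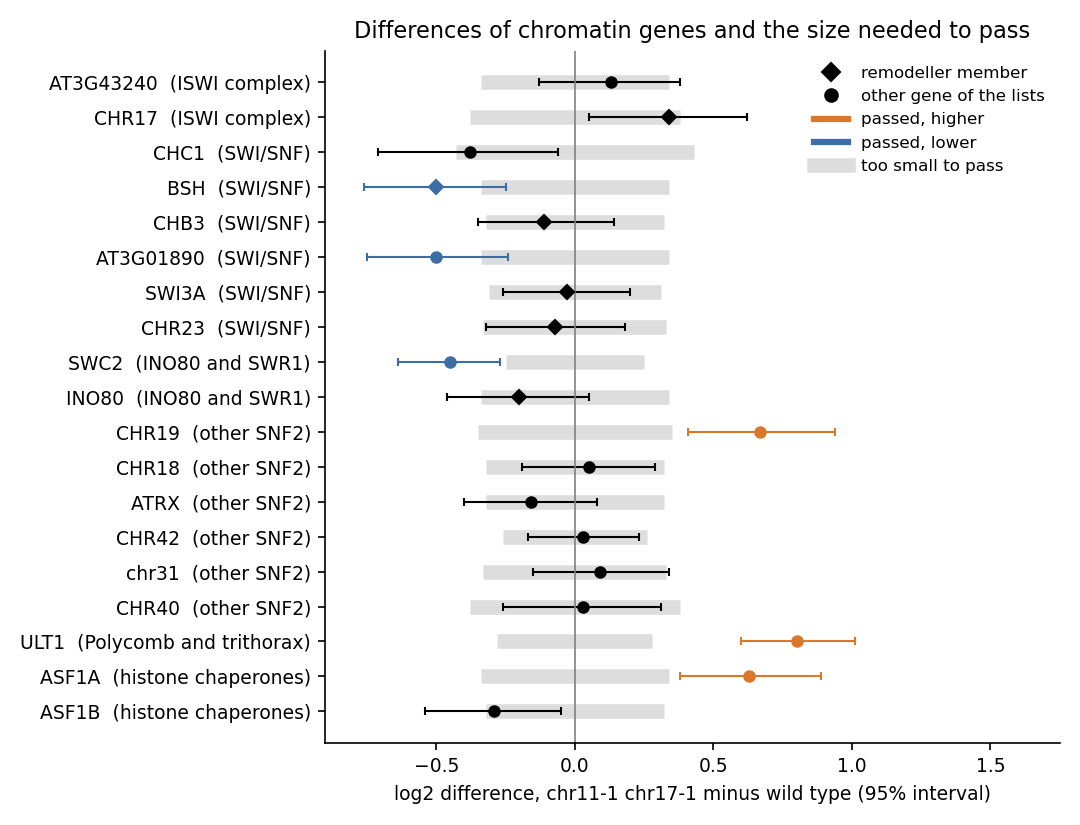
Log2 difference (chr11-1 chr17-1 minus wild type) with its 95% interval for the 19 measured genes of the chromatin lists, diamonds for the 6 remodeller genes and circles for the others, orange and blue for those that passed. Grey bars span the differences too small to pass at each gene's standard error; BSH, AT3G01890 and SWC2 lie outside on the lower side and CHR19, ULT1 and ASF1A on the higher side.

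Over the 6 arrays, the named probe sets above the median level whose pattern was most like that of CHR17 were AT3G16310 (Pearson's r = 0.994), AT1G45170 (0.992) and AT5G64090 (0.990), of 6059 compared. For BSH they were PIR121, a gene of the actin-regulating SCAR/WAVE complex (0.987), AT1G27120 (0.985) and AT5G24460 (0.984). Such an r takes in both the genotype difference and the spread among arrays of a genotype, and 54 genes for CHR17 and 56 for BSH had an r above 0.95. PIR121 (-0.92) and AT1G27120 (-0.76) passed limma. AT5G24460 and the named genes most like CHR17 did not (limma adjusted p from 0.0551 to 0.154). PIR121 gave 6.54, 6.53 and 5.79 in wild type against 5.38, 5.14 and 5.6 in the double mutant, with wild-type replicate 3 lowest of its group as in BSH. Between BSH and the other members, r ran from -0.71 with CHR17 to 0.61 with CHB3.

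The samples read as green tissue, which does not by itself single out leaf. Of the marker entries, 2 of 11 for leaf and 6 of 19 for other tissues had a named probe set. RCA, the Rubisco activase gene, and LHCB4.2, a light-harvesting antenna gene, lay between 12.90 and 13.93 on every array, near the top of the deposited range of 2.96 to 14.32. LHCB4.2 rose by 0.54 and RCA had -0.23. The 6 measured markers of root hairs, anthers, meristems and flowers (EXPA7, EXPA18, AMS, AT5G07230, CLV3 and UFO) read 3.49 to 4.46. None passed limma, with 0 at an unadjusted p below 0.05. Of these 6, 3 averaged at or below the highest bacterial control reading of 3.90. EXPA18 averaged 4.27, close to the mean of CHB3 (4.31). Of the 64 control probe sets, 56 were higher in the mutant, with a median difference of 0.22. The 25S ribosomal RNA control read 8.90 on mutant replicate 1 against 10.32 to 10.85 on the other 5 arrays, and without that array BSH had -0.50, INO80 -0.10, CHR17 0.23 and CHC1 -0.24. The part of these readings in the results was not tested.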

How the data were processed

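Log2 expression values, 1 per probe set and array, are as the authors deposited them; RMA and Partek are named in the submitters' processing notes, with no version, role or setting. Values were used as deposited, without further normalization. Of 22810 probe sets, 64 controls were left out of the test. Names came from the probe table of the platform (13513 probe sets with 1 gene) and a TAIR10.1 gene table, matched by gene ID.

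Genotypes were compared by limma's lmFit and eBayes (version 3.58.1, with R 4.3.3; two-sided), adjusted over 22746 probe sets. On simulated data with 200 changed probe sets, the step recovered 71.6% of changes of 0.5 and 100% of changes of 1. In the real data 28.6% of probe sets were called, which changes the adjusted cutoff. The simulated shares therefore do not give the power of the real comparison. Tables and figures used Python 3.11.15, pandas 2.3.3 and matplotlib 3.10.9.

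Members and lists were chosen with earlier results of these data known. The naming rule took all members, up to 6 genes past the threshold per list or the 2 largest changes, and 3 genes most like CHR17 and BSH; other list members were named after their values were seen. The smallest passing difference is the smallest moderated t that passed, 2.95, times the standard error.

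Alternatives were quantile normalization, median centring, scaling to controls, leaving out the dimmest 30% of probe sets or those whose suffix marks cross-hybridisation, limma's trended and robust prior, weights per array, a replicate block, omission of each array, and a threshold of 0.01.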

Additional observations from a re-analysis of the deposited data

How the results depend on the processing

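BSH kept its direction and passed in all 14 alternatives run for it, from -0.84 to -0.43 (limma adjusted p from 0.000178 to 0.0376). CHR17 lay between 0.0021 under control scaling and 0.44 without mutant replicate 2, where it passed; leaving out 1 array gave 0.23 to 0.44. INO80 passed under control scaling (-0.53) and had -0.28 to -0.10 with 1 array left out. Signs turned for CHR23 (-0.15 to 0.03 with 1 array left out), SWI3A (-0.12 to 0.05) and CHB3 (-0.16 to 0.0083). The number of remodeller genes past the test was 2 under control scaling and 1 to 2 with 1 array left out. Among the 13 other genes, signs turned under control scaling for AT3G43240 (-0.21), CHR42 (-0.30), chr31 (-0.24), CHR40 (-0.30) and CHR18 (-0.28), and with 1 array left out for CHR42 (-0.01 to 0.08), chr31 (-0.01 to 0.15), CHR40 (-0.11 to 0.15) and CHR18 (-0.04 to 0.14). Control scaling subtracts the same shift from every probe set, and the dimmest decile then has a median of -0.33. The count over the chromatin lists stayed within 6 to 7 and that over all probe sets within 4472 to 6929. Under control scaling the make-up of the chromatin count changed, from 3 higher and 3 lower to 0 higher and 7 lower. Arrays that share a replicate number did not deviate together (r of -0.30, -0.17 and -0.17), so the numbers give no pairing, and with the replicate block BSH had an adjusted p of 0.0189, CHR17 0.156, and 5682 probe sets passed. Each member has 1 probe set of its own, so averaging probe sets gave no further value, and CHR23 and SWI3A have no value without dim probe sets. Low signal over background limits CHR23, SWI3A, CHB3, AT3G01890, ATRX, CHR18, CHR42, chr31 and CHR40, whose means lie at most 0.41 above the highest bacterial control reading.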

Other observations

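Histones and modifiers were listed after the gene names were seen. Of 11 measured, HIS1-3, a linker histone gene known from drought-stressed plants, rose (0.55, limma adjusted p = 0.0229) and HTB2, a histone H2B gene, fell (-0.97, limma adjusted p = 6.5e-05); 2 of 11 is 18.2%, against 25.6% of all named genes. The wild-type mean of HIS1-3, 4.04, lay near the bacterial control range of 3.36 to 3.90, so its difference is one of array signal near background. HTB2 gave 9.19, 9.31 and 9.23 in wild type against 8.29, 8.09 and 8.44 in the double mutant. The other H2B genes HTB1 (0.06), HTB4 (0.14) and HTB11 (-0.02) did not pass, and signals of such near-identical gene copies can be shared between probe sets. HDA15, a histone deacetylase gene, had 0.43 and did not pass (limma adjusted p = 0.167). It read 6.38 on mutant replicate 1 against 5.63 and 5.61 on the other mutant arrays, which lay within the wild-type range. The 2 further SNF2-type genes, CHR24 (-0.11) and CHR34 (0.09), did not pass.

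Of the 79 protein-coding genes between CHR17 and CHR23, 36 had a named probe set. Of these, 11 were higher and 3 lower (38.9% in all), against 12.5% and 13.1% of all named genes (25.6% in all). Between CHR11 and CHR12 on chromosome 3, 21 of 42 were measured, with 1 higher and 4 lower (23.8% in all). In the longer stretches of that chromosome from CHR11 to BSH and from CHR11 to INO80, 30.7% and 27.6% of the measured genes passed. These counts were not tested.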
